A study of Homo sapiens with 6 samples.

Results

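The genes described here are the numbered ZNF genes outside chromosome 19 that were expressed in HCT116-UGI cells. They were selected as protein-coding entries named ZNF plus a number, located on neither chromosome 19 nor a sex chromosome, with a mean of the 6 libraries above 500. The mean level was therefore the value that chose them. The rule gave 185 genes of 42822 entries in the table, of which 13479 passed the same floor. Of 440 numbered ZNF genes in the table, 217 lay outside chromosomes 19, X and Y, and 32 of these stayed at or under the floor (5 of them were listed at 0 in every library). Just inside the floor were ZNF648 (mean 648), ZNF595 (656) and ZNF214 (1070), and just outside were ZNF750 (461), ZNF853 (397) and ZNF391 (367).

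HCT116-UGI is a human colon adenocarcinoma line that lacks mismatch repair and expresses UGI, a protein that blocks the uracil-DNA glycosylase UNG. Both features were present in every library, controls included. Cells were not treated (NT), or received 100 nM raltitrexed (RTX, an antifolate inhibitor of thymidylate synthase, TS) or 20 µM 5-fluoro-2'-deoxyuridine (5FdUR, a nucleoside whose monophosphate inhibits TS), each for 48 h. From each combined cytoplasmic and nuclear extract, RNA was recovered from antibody-free pre-clearing beads (RIPctr) and then from an anti-TS immunoprecipitate of the pre-cleared extract (TS-RIP). There was 1 library per treatment and fraction, so no group had a biological replicate. RIPctr is RNA held by beads and not the input, so a TS-RIP to RIPctr ratio compares both precipitates, and a drug effect is read in precipitated RNA.

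C2H2 zinc finger proteins are the largest group of human transcription factors. Each finger is a short loop held by a zinc ion between a pair of cysteines and a pair of histidines, and fingers joined by a conserved linker read DNA one after another. Many carry a KRAB domain, which recruits the corepressor TRIM28 and through it SETDB1 and heterochromatin proteins, a system best known for silencing transposable elements. Others carry a SCAN domain for dimerisation, and some bind RNA or act on ribosomes instead of DNA. In human, the KRAB genes lie in clusters, the largest of which are on chromosome 19, and neighbours in a cluster arose by duplication.

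The sequences below each show a finger with its linker, because base composition is the property that went with the ratios reported further on. In 120 of the 185 genes, at least 1 such unit with a classical spacing was found within a single exon of the canonical transcript, and the first of them is printed. Each is 81 bases and encodes 27 residues, and capitals mark the codons of the zinc-binding cysteines and histidines. Sequences are from GENCODE 44 on GRCh38, on the strand of the gene. The first 4 genes lie in a cluster on chromosome 7 and were lower in TS-RIP. Among the genes considered that have such a unit, the next 3 had the highest mean ratios at a mean level above 5000, and the last had the highest mean level.
ZNF107 (chr7:64706704-64706784, + strand): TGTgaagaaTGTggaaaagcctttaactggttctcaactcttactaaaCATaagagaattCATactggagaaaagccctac
ZNF117 (chr7:64978572-64978652, - strand): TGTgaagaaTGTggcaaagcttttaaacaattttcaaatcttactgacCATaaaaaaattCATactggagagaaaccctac
ZNF680 (chr7:64521788-64521868, - strand): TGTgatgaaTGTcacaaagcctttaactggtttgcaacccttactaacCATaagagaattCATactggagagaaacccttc
ZNF92 (chr7:65398721-65398801, + strand): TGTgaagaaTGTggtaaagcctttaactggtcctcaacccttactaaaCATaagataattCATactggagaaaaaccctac
ZNF467 (chr7:149765770-149765850, - strand): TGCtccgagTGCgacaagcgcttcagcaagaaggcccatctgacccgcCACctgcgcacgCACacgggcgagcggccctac
ZNF232 (chr17:5106082-5106162, - strand): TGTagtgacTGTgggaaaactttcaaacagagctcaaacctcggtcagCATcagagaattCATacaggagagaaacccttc
ZNF22 (chr10:45003621-45003701, + strand): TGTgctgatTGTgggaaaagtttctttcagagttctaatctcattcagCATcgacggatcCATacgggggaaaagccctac
ZNF664 (chr12:124012409-124012489, + strand): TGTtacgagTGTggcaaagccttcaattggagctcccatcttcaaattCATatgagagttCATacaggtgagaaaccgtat

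The 4 printed units of the chromosome 7 cluster were close to each other. That of ZNF107 was identical to that of ZNF92 at 93.8% of bases, to that of ZNF680 at 86.4% and to that of ZNF117 at 82.7%. With the units of genes elsewhere it shared 70.4% (ZNF664), 69.1% (ZNF232), 63.0% (ZNF22) and 50.6% (ZNF467). GC content was 37.0% in the units of ZNF107 and ZNF92, 39.5% in ZNF680 and 32.1% in ZNF117, against 67.9% in ZNF467. ZNF232 (44.4%), ZNF22 (45.7%) and ZNF664 (42.0%) lay between. Uniquely aligned reads were counted, so reads shared by such related copies could have been lost, and the values of the cluster genes are uncertain to that extent.

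The shallowest library (5FdUR RIPctr) held 7051104 fragments and the deepest (TS-RIP of NT) 11657293, and the floor of 500 stood for 3.67 to 5.88 fragments. Of the colon epithelium markers (EPCAM, CDH1, KRT8, KRT18, CDX2, VIL1), 5 of 6 passed the floor, while VIL1 had 0 to 5 fragments in a library. Of 11 markers of fibroblasts, blood, endothelium and liver, only COL1A1 and VWF passed. The 11 summed to 159 to 249 fragments in RIPctr and 111 to 297 in TS-RIP, with CD3E and HBB at 0 throughout, and COL1A1 was lower in TS-RIP by limma (mean log2 ratio -0.64, adjusted p = 0.0246). Long noncoding RNAs known as nuclear set the fractions apart most: all 3 measured (MALAT1, NEAT1, KCNQ1OT1) were lower in TS-RIP, with 54017 to 95823 summed fragments in RIPctr and 1571 to 3626 in TS-RIP. The part of such RNAs in the ZNF ratios was not tested.

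As a class these genes were expressed at modest levels. Per kilobase of canonical transcript, their median value (mean of 6 libraries) was 4271, against 8574 for all protein-coding genes tested and 2308 for the 135 ZNF genes of chromosome 19 above the floor. The median gene had 136 fragments in its median library. Counting intervals were therefore wide for many of them, and a gene near the floor had a handful of fragments. By scaled fragments without regard to length, the 6 highest entries were ZNF343, ZNF638, ZNF609, ZNF106, ZNF664 and ZNF629. The entry of ZNF343 (mean 262243) also held transcripts of SNRPB, a core spliceosomal protein gene, so its value cannot be assigned to ZNF343. Transcripts of more than 1 gene were held by 20 of the 185 entries, ZNF664 (157170) among them, and the other 165 were of a single gene.

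Whether these mRNAs were over- or underrepresented in the TS immunoprecipitate was asked first over the 3 treatments together. Of the 185 genes, 19 were lower in TS-RIP and 0 were higher by limma with treatment as a block (Benjamini-Hochberg over all 13479 genes tested, adjusted p under 0.05). Over all genes tested, 6.17% were lower and 2.33% were higher. At an unadjusted p under 0.05, limma had 42 of these genes lower and 5 higher, against 14.7% lower and 10.9% higher over all genes tested. On recovered fragments, edgeR called 14 of them lower and 1 higher (5.27% and 2.83% of all genes), and DESeq2 called 7 lower and 1 higher (3.11% and 2.05%). The median of the mean log2 ratio was -0.14, against -0.01 over all genes tested and 0.01 over protein-coding genes. Single-gene entries gave 17 lower of 165 and a median of -0.15. The count of 19 depended on single treatments: leaving out the libraries of RTX gave 3, those of 5FdUR gave 9 and those of NT gave 45. It was 5 with libraries brought to equal totals, and 0 without the treatment block or without the trend in eBayes, where limma called 47 and 215 genes lower over the whole table.

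The 19 genes were not of 1 kind, but several lay together. Of the 6 measured ZNF genes of the chromosome 7 cluster, 4 were lower in TS-RIP (ZNF107, ZNF117, ZNF680 and ZNF92), and the median over all 6 was -0.74. This grouping was made after the values were seen. ZNF107, a KRAB gene with 16 fingers at chr7:64666083-64711582 (GRCh38), had values of 25304, 16800 and 12537 in RIPctr (NT, RTX and 5FdUR) and of 13855, 9829 and 6478 in TS-RIP. TS-RIP was lower than RIPctr within each treatment, although the fractions overlapped across treatments. Its mean log2 ratio was -0.86 (limma SE 0.15, adjusted p = 0.00302), the lowest p among these genes, and its entry also held a microRNA gene. ZNF117, whose entry also held the endogenous retroviral gene ERV3-1, had 5471, 9707 and 9266 in RIPctr and 3740, 2024 and 3887 in TS-RIP, so that all TS-RIP values lay under all RIPctr values. Its mean ratio was -1.33 (limma SE 0.27, adjusted p = 0.00922). ZNF680 fell from 12652, 11449 and 6405 in RIPctr to 10200, 4336 and 2890 in TS-RIP (mean ratio -0.94, limma SE 0.22, adjusted p = 0.017), with most of the difference in both drug treatments. ZNF92 had a mean ratio of -0.62 (limma SE 0.15, adjusted p = 0.0188). The other measured genes of the cluster, ZNF273 (-0.38) and ZNF138 (-0.15), had adjusted p values of 0.311 and 0.66 by limma.

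Genes with known roles apart from KRAB repression were also among the 19. ZNF326, part of the DBIRD complex that links transcript elongation with splicing, had values of 39209, 42312 and 26845 in RIPctr and 21166, 26789 and 19135 in TS-RIP. The highest TS-RIP value (RTX) lay just under the lowest RIPctr value (5FdUR). Their gap was less than the value of 1 fragment (136 in 5FdUR RIPctr, 96 in RTX TS-RIP), so the fractions were not clearly apart. The mean ratio was -0.68 (limma SE 0.13, adjusted p = 0.00503), and the difference was widest in NT (-0.89). ZNF451, a SUMO ligase, had 117628, 93708 and 80127 in RIPctr and 94693, 60901 and 56110 in TS-RIP, lower in each treatment but overlapping across treatments (mean ratio -0.48, limma SE 0.11, adjusted p = 0.0133). ZNF800, a transcription factor that restrains enteroendocrine differentiation in human intestinal organoids, had 39665, 34098 and 44833 in RIPctr and 35446, 16767 and 23919 in TS-RIP. Its NT ratio of -0.16 had a 95% counting interval of -0.37 to 0.05, while RTX (-1.02) and 5FdUR (-0.90) were well below 0 (mean -0.70, limma SE 0.15, adjusted p = 0.0126).

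The remaining genes among the 12 lowest p values were ZNF292, ZNF407, ZNF589, ZNF519 and ZNF608. ZNF292, a large protein with 14 fingers, had 104406, 69814 and 46196 in RIPctr and 80072, 42400 and 30597 in TS-RIP (mean ratio -0.56, limma SE 0.11, adjusted p = 0.00684). ZNF407, with 23 fingers, had a mean ratio of -0.59 (limma SE 0.12, adjusted p = 0.00774) and was below 0 in NT (-0.43), RTX (-0.78) and 5FdUR (-0.56). ZNF589 had a mean ratio of -0.65 (limma adjusted p = 0.0182). ZNF519 had the second lowest mean ratio of the 19 (-1.22, limma SE 0.29, adjusted p = 0.0201) but rested on 27, 31 and 26 fragments in RIPctr and 19, 16 and 12 in TS-RIP. ZNF608 was lowest with 5FdUR (-1.47), where it had 66 fragments in RIPctr and 32 in TS-RIP. The 7 genes with higher p values were ZNF621, ZNF782, ZNF678, ZNF483, ZNF721, ZNF697 and ZNF706, and their mean ratios ran from -1.14 (ZNF782) to -0.42 (ZNF721). All 19 genes had ratios below 0 in each of the 3 treatments, but they were called on these same ratios, which makes a shared sign likely.

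**Figure D1:**
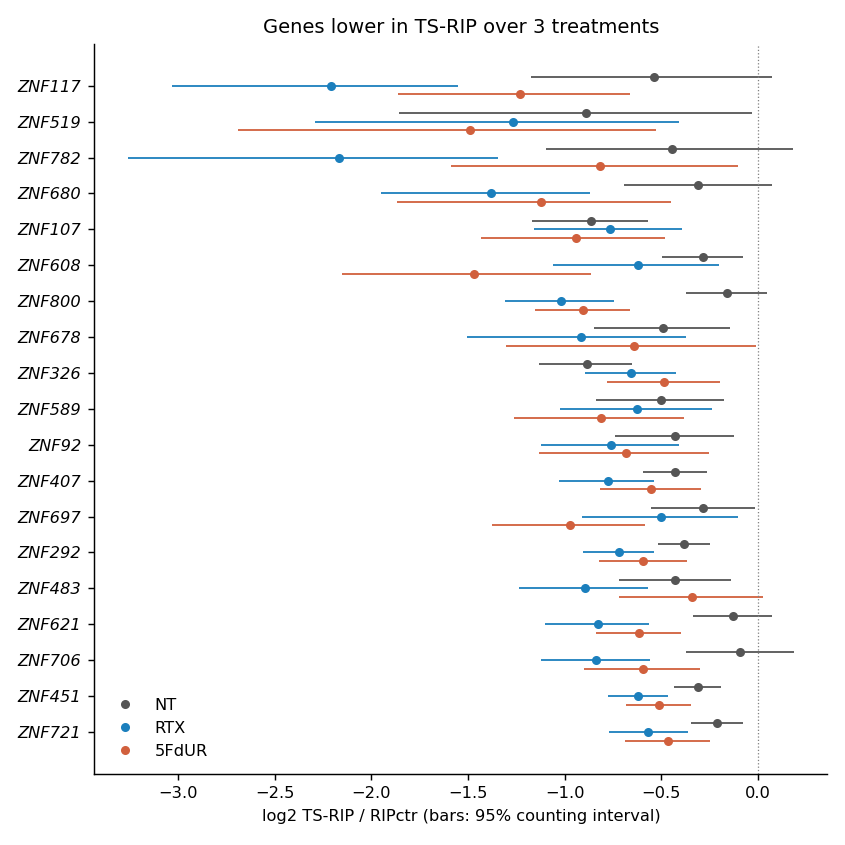
Log2 ratio of TS-RIP to RIPctr (x axis) for the 19 ZNF genes outside chromosome 19 that limma called lower, sorted by mean ratio. Each point is the pair of libraries of NT (grey), RTX (blue) or 5FdUR (red), and bars are 95% exact counting intervals. All points lie below 0, in genes called on these same ratios, and the NT point is nearest to 0 in 16 genes, as in ZNF117 (-0.54 against -2.21 with RTX).

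No gene passed the test upward. ZNF511, ZNF343, ZNF467 and ZNF76 came nearest, with mean ratios of 0.51, 0.36, 0.41 and 0.37 and limma adjusted p values of 0.0524, 0.0528, 0.0662 and 0.0832 (these genes were picked after their values were seen). The entry of ZNF511 also held PRAP1. ZNF467, whose unit is the GC-rich one printed above, had 19491, 11574 and 18124 in RIPctr and 27031, 15707 and 22922 in TS-RIP. Its counting interval stayed above 0 in NT (0.20 to 0.75), RTX (0.06 to 0.82) and 5FdUR (0.02 to 0.66). With libraries brought to equal totals, ratios shift by -0.11 in RTX and -0.08 in 5FdUR. These shifts exceed the lower limits in both drugs, so those intervals would reach below 0.

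Within single treatments, the middle of the class lay lower in both drugs than in NT. The median ratio of the 185 genes was -0.02 in NT, -0.16 in RTX and -0.21 in 5FdUR, against 0.04, 0.02 and 0.01 for protein-coding genes. Ratios below 0 were found for 100 genes in NT, 127 in RTX and 142 in 5FdUR. In all 3 treatments 66 genes were below 0 and 15 above. Of the 13479 genes tested, 6444 were below 0 in NT, 6801 in RTX and 6913 in 5FdUR. In all 3 treatments 3135 of these 13479 were below 0 and 3110 above. With libraries brought to equal totals, the medians of the 185 genes were 0.07, -0.27 and -0.30, so the sign in NT turned, and the median of all genes tested shifted by 0.09, -0.11 and -0.08 in NT, RTX and 5FdUR.

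**Figure D2:**
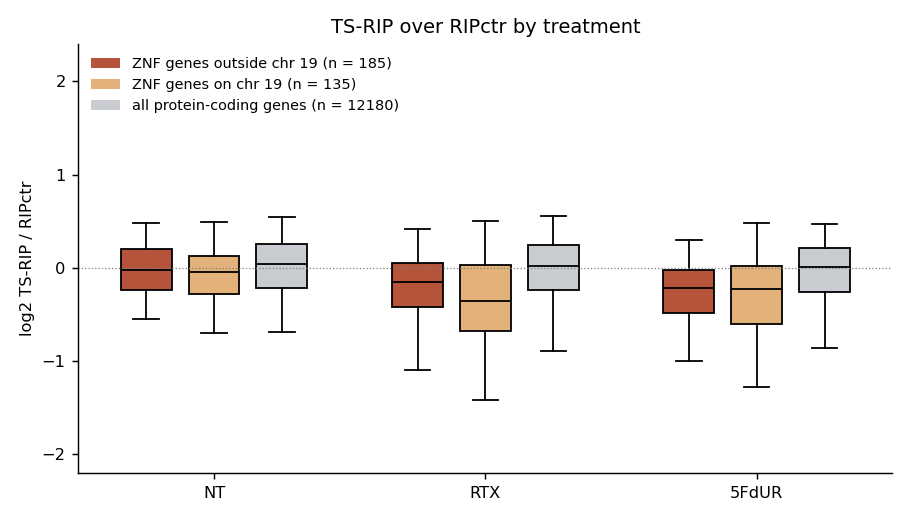
Log2 ratio of TS-RIP to RIPctr by treatment for ZNF genes outside chromosome 19 (n = 185), ZNF genes on chromosome 19 (n = 135) and all protein-coding genes tested (n = 12180). Boxes span the 25th to 75th percentile with the median, and whiskers the 5th to 95th. The medians of the first group go from -0.02 in NT to -0.16 in RTX and -0.21 in 5FdUR, while those of all protein-coding genes stay between 0.01 and 0.04.

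Counted by size (past 1.5-fold with a mean of both libraries above 500, no test), 9 of 185 genes were lower and 4 higher in NT, against 9.8% and 4.37% of all genes. In RTX, 30 of 184 were lower (16.3%) and 3 higher, against 14.7% and 4.27% of all genes. In 5FdUR, 38 of 185 were lower (20.5%) and 4 higher, against 15.1% and 3.03%. The share of lower genes was thus under that of the whole table in NT and near it in RTX. The whole table includes noncoding RNAs, and among protein-coding genes alone 6.61% were lower with NT, 9.97% with RTX and 10.8% with 5FdUR. Where both libraries averaged above 5000, the lowest ratios were those of ZNF326, ZNF107 and ZNF485 in NT, of ZNF117, ZNF680 and ZNF484 in RTX, and of ZNF608, ZNF117 and ZNF26 in 5FdUR. The highest were those of ZNF219, ZNF511 and ZNF707 in NT, of ZNF707, ZNF343 and ZNF777 in RTX, and of ZNF133, ZNF511 and ZNF343 in 5FdUR. ZNF219, a partner of SOX9 in mouse chondrocytes, had a ratio of 0.57 in NT (95% counting interval 0.36 to 0.79) and of 0.17 and 0.15 with RTX and 5FdUR. ZNF26 was also highest in NT, with 0.24 in NT (-0.30 to 0.79), -1.18 in RTX (-1.92 to -0.53) and -1.14 in 5FdUR (-1.86 to -0.50), and these differences between treatments have no replicate.

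A property that the selection did not use, GC content of the canonical transcript, ordered the ratios. The genes were split into 3 sets of like size. In the set with the lowest GC content (up to 42.3%), the median mean ratio was -0.34 and 14 of 62 genes were lower in TS-RIP. In the middle set it was -0.13 with 5 of 61 lower, and in the set above 52.8% it was 0.01 with 0 of 62 lower by limma (0 also at an unadjusted p under 0.05). Protein-coding genes in the same GC ranges had medians of -0.12, 0.03 and 0.10, and 261 of 3247 (8.04%), 137 of 4188 (3.27%) and 136 of 4734 (2.87%) of them were lower. Across the 185 genes, the Spearman correlation between GC content and mean ratio was 0.57 (Pearson 0.55), and across 12169 protein-coding genes it was 0.31. Over the 185 genes this correlation was 0.52 with NT, 0.48 with RTX and 0.32 with 5FdUR, and over protein-coding genes 0.35, 0.29 and 0.07. The genes share their libraries and are not independent, so these are descriptions only. The coding part (Spearman correlation 0.55) and the part after the stop codon (0.53, 184 genes) gave alike values. The 19 lower genes had a median GC content of 37.4% and a median length of 5630 nt, against 48.0% and 3466 nt in the other 166.

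**Figure D3:**
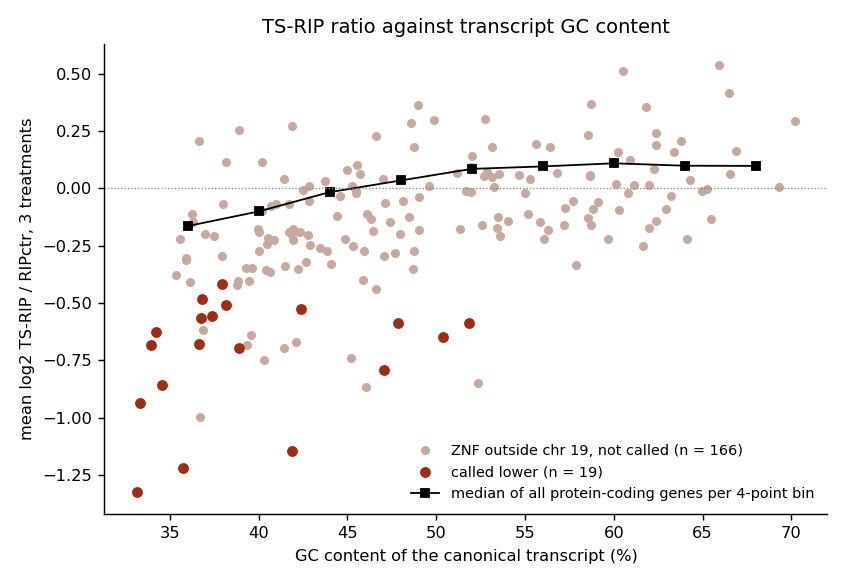
Mean log2 TS-RIP to RIPctr ratio over 3 treatments (y axis) against GC content of the canonical transcript in percent (x axis) for the 185 ZNF genes. Red points are the 19 called lower, pale points the other 166, and black squares the medians of all protein-coding genes in bins of 4 percentage points. Most red points lie at the left, and none lies above 52.8% GC.

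Transcript length moved with the ratio too, and less in these genes than GC content did. The Spearman correlation between length and mean ratio was -0.31 over the 185 genes and -0.35 over protein-coding genes. The 62 genes with the longest transcripts had a median of -0.20 and 12 lower, against -0.02 and 3 lower in the 62 with the shortest. Protein-coding genes in the same length ranges ran the same way, with a median of -0.10 and 299 of 3608 lower (8.29%) against 0.10 and 107 of 5564 (1.92%). The part of GC content, length and level in the lower ratios was not tested. Split by level, the medians were -0.20, -0.16 and -0.11 from the lowest to the highest set.

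A KRAB A box, scored as at least 6 of 7 conserved positions in the translated transcript, was found in 70 genes, and 7 of them were lower in TS-RIP, against 12 of 115 without it. A box that diverged further was scored as absent, and ZNF282 and ZNF205, for example, matched at 5 positions. These shares (10% and 10.4%) compare with 6.17% lower over all genes tested and 4.39% over protein-coding genes. At an unadjusted p under 0.05, limma had 22 lower and 1 higher with the box, and 20 lower and 4 higher without it. Over all genes tested, 14.7% were lower and 10.9% higher at that limit. The median mean ratio was -0.25 with and -0.07 without the box. Within the lowest GC set the medians were close to each other (-0.34 for 31 genes with and -0.30 for 31 without), within the middle set they were -0.27 (23 genes) and -0.05 (38), and within the highest 0.06 (16) and 0.01 (46). By number of fingers, 4 of 44 genes with 0 to 4, 3 of 64 with 5 to 9, and 12 of 77 with 10 or more were lower, with medians of -0.09, -0.12 and -0.19. These shares were 9.09%, 4.69% and 15.6%, so that with 5 to 9 fingers was near that of protein-coding genes.

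The chromosome 19 ZNF genes, which were left out by the rule, more often carried a KRAB A box (108 of 135). Of them 17 were lower and 2 higher in TS-RIP by limma (12.6% and 1.48%, against 6.17% and 2.33% over all genes tested). Their median mean ratio was -0.24. Their median GC content was 42.6%, against 47.0% in the genes outside chromosome 19. The 108 with a KRAB A box had a median of -0.29 and the 27 without one of 0.14, at median GC contents of 42.1% and 61.8%. The difference between both locations was not tested.

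The genes were also grouped by known role. Over all genes tested, limma called 6.17% lower and 2.33% higher, and 14.7% and 10.9% at an unadjusted p under 0.05, so counts of 0 to 2 in lists this short do not set a list apart. Among 8 genes that act on RNA or ribosomes, only ZNF326 passed limma, and the median mean ratio was -0.07. ZNF622, a 60S ribosome assembly factor, had a mean ratio of 0.05 (limma adjusted p = 0.797), and ZNF106, an RNA-binding protein, one of -0.12 (0.5). ZNF638, which binds nuclear RNA and recruits the HUSH silencing complex to unintegrated retroviral DNA, was the highest single-gene entry of the 185. It had 408506, 187416 and 140495 in RIPctr and 270733, 148398 and 129662 in TS-RIP, so the fractions overlapped across treatments. Its ratio was -0.59 in NT (95% counting interval -0.66 to -0.52), -0.34 in RTX and -0.12 in 5FdUR, with a limma adjusted p of 0.072.

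Of 4 measured genes of genome maintenance, 1 passed, ZNF451, and the median was -0.21. ZNF827, which acts at telomeres, had -0.20 (limma adjusted p = 0.322) and ZNF668 had -0.22 (0.315). None of 7 promoter-binding activators passed limma (median -0.18), and the 3 with most fragments were ZNF335 (0.01), ZNF281 (-0.19) and ZNF384 (-0.12). At an unadjusted p under 0.05, 1 of the 7 was higher and 0 were lower. None of 11 corepressor partners passed (median -0.07, 2 lower and 1 higher at an unadjusted p under 0.05), including ZNF592 (-0.02), ZNF644 (-0.30), a partner of the histone methyltransferases G9a and GLP, and ZNF462 (-0.19). None of 13 SCAN genes passed (median -0.02, 0 at an unadjusted p under 0.05), among them ZNF24 (-0.21), ZNF496 (0.18) and ZNF174 (0.01). The 14 measured genes of the KRAB corepressor machinery, which are not ZNF genes, had a median of -0.06, and 0 passed limma (2 lower at an unadjusted p under 0.05). TRIM28, the corepressor itself, had a mean ratio of -0.09 (limma SE 0.13), CBX5, a heterochromatin protein, one of 0.14, and CHD3, a chromatin remodeller, one of 0.06.

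With both drugs, values of these genes went down against NT in both fractions. A gene was counted when it changed by at least 1 on the log2 scale, one way in both fractions, and its 4 libraries averaged above 1000. With RTX, 26 of 183 genes went down (14.2%) and 0 up, against 3.61% down and 5.33% up over all genes. With 5FdUR, 41 of 182 went down (22.5%) and 4 up, against 7.75% down and 10.0% up. The median log2 change of the 185 genes in RIPctr was -0.54 with RTX and -0.55 with 5FdUR, and in TS-RIP -0.70 and -0.73. For protein-coding genes tested it was 0.00 and 0.04 in RIPctr and 0.02 and 0.04 in TS-RIP. Both drugs are compared with the same NT libraries, so that an error in NT would enter both. With 1 library per group no test was made, and fewer cells expressing a gene cannot be told apart from less RNA per cell. Both fractions of a treatment come from the same lysate and are not replicates.

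**Figure D4:**
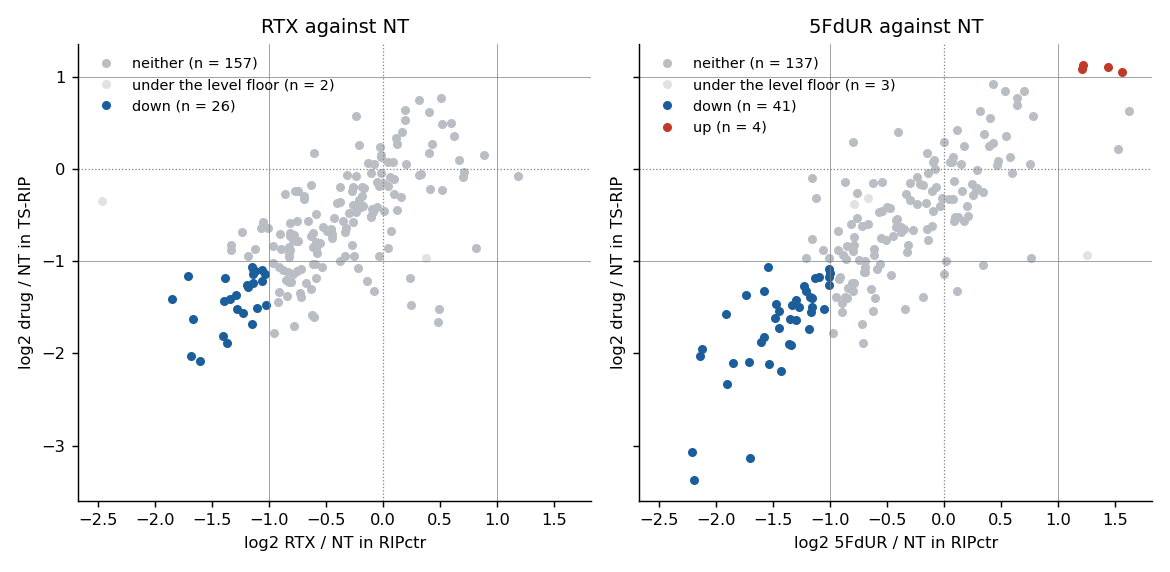
Log2 change against NT in RIPctr (x axis) and in TS-RIP (y axis) for the 185 ZNF genes, with RTX at the left and 5FdUR at the right. Thin lines mark a change of 1 in either direction, and coloured points pass it in both fractions. With RTX 26 genes are down and none is up, and with 5FdUR 41 are down and 4 up.

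The 6 largest decreases with RTX, by the smaller change of both fractions, were those of ZNF608, ZNF397, ZNF624, ZNF214, ZNF217 and ZNF687. ZNF608 had 41489 in NT, 12818 with RTX and 8994 with 5FdUR in RIPctr, and 34001, 8287 and 3189 in TS-RIP. NT was thus the highest library in both fractions, and the log2 changes were -1.69 and -2.02 with RTX and -2.19 and -3.37 with 5FdUR. ZNF217, an oncogene product of the LSD1 and CoREST corepressor complex, had 148061, 55876 and 41017 in RIPctr and 144079, 41050 and 33487 in TS-RIP. Its changes were -1.40 and -1.81 with RTX and -1.85 and -2.10 with 5FdUR. ZNF687, found with ZMYND8 in a chromatin complex, had 96428, 36587 and 33250 in RIPctr and 106678, 39605 and 24517 in TS-RIP. ZNF397, a SCAN family gene, had 68616, 21529 and 15671 in RIPctr, with NT again apart from both drugs. ZNF624 and ZNF214 rested on few fragments (20 and 4 with RTX in RIPctr).

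With 5FdUR, the largest decreases were those of ZNF704, ZNF608, ZNF281, ZNF397, ZNF775 and ZNF217. ZNF704 had 132445 in NT, 59610 with RTX and 28617 with 5FdUR in RIPctr, and 158954, 49530 and 18836 in TS-RIP. The RTX value lay between NT and 5FdUR in both fractions, with changes of -2.21 and -3.07 for 5FdUR. ZNF281, a regulator of pluripotency and of epithelial-mesenchymal transition, had 123555, 50650 and 27935 in RIPctr and 107613, 41725 and 26311 in TS-RIP (changes of -2.14 and -2.03 with 5FdUR). ZNF775 had 123, 46 and 27 fragments in RIPctr, and its entry also held transcripts of other genes.

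The 4 genes that went up with 5FdUR were ZNF79, ZNF423, ZNF654 and ZNF720. ZNF79 had 11512 in NT, 17796 with RTX and 26982 with 5FdUR in RIPctr and 12325, 15804 and 27108 in TS-RIP. Its changes with 5FdUR were 1.22 and 1.13. ZNF654 had 14590, 16800 and 33931 in RIPctr and 11730, 12142 and 24916 in TS-RIP, with 5FdUR alone apart. ZNF423, a regulator of neural and adipocyte commitment, went from 18 to 42 fragments in RIPctr and from 20 to 38 in TS-RIP. ZNF720, whose identifier GENCODE 44 names KRBOX5 and in which a KRAB A box but no finger was found, went from 31 to 78 and from 52 to 93 fragments.

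**Figure D5:**
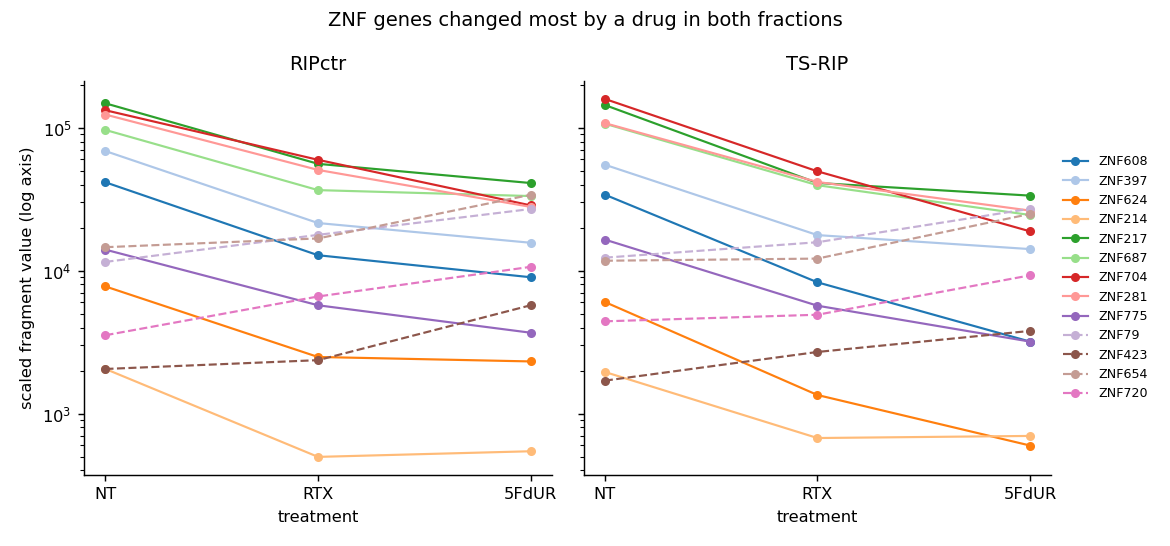
Scaled fragment values on a log axis in NT, RTX and 5FdUR for the ZNF genes with the largest changes, in RIPctr (left) and TS-RIP (right). Each point is 1 library, lines join the values of a gene, solid for genes that went down and dashed for those that went up with 5FdUR. ZNF217 goes from 148061 in NT to 55876 with RTX and 41017 with 5FdUR in RIPctr.

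Medians of the drug changes in RIPctr were below 0 in every set given here, but they differed in size. By GC set, median RIPctr changes with RTX were -0.38, -0.75 and -0.34 from the lowest to the highest, and the Spearman correlation between GC content and this change was -0.01, so that GC content did not order the drug changes as it ordered the TS-RIP ratios. That with transcript length was -0.27 with RTX and -0.35 with 5FdUR in RIPctr, and -0.27 with both over protein-coding genes. The set with the shortest transcripts had median RIPctr changes of -0.20 with RTX and -0.13 with 5FdUR, against -0.70 and -0.80 in the longest. Protein-coding genes in the same length ranges had 0.18 and 0.27, against -0.22 and -0.23. Genes scored with a KRAB A box had medians of -0.56 with RTX and -0.59 with 5FdUR in RIPctr, and those scored without one -0.52 and -0.54. By role, corepressor partners had -0.83 and -0.86, genes of genome maintenance -0.39 and -0.56, and SCAN genes -0.43 and -0.35. Genes that act on RNA or ribosomes had -0.10 and -0.42, and promoter-binding activators -0.05 and -0.30. The KRAB corepressor machinery had -0.44 and -0.59. Of the chromosome 19 ZNF genes, 16 of 130 went down with RTX and 19 of 131 with 5FdUR (12.3% and 14.5%), with 0 and 1 up. Over all genes, 3.61% and 7.75% went down with RTX and 5FdUR, and 5.33% and 10.0% up.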

How the data were processed

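RNA of 6 libraries (TS-RIP and RIPctr, 3 treatments) was taken from the deposited table. From rRNA-depleted RNA the authors made paired-end libraries. They used fastp for trimming, BWA against rRNA, HISAT2 for GRCh38 (unique alignments kept) and the Cufflinks suite, set to read strand, for GENCODE 34 (versions not given in the sources used here). The deposited values, named FPKM by the authors, are a signal: fragment counts scaled per library by geometric scaling without division by length. In each library, 100% of values under 200 fragments came out as whole numbers of 1 common step (tolerance 0.05 fragments), which gave back the fragments. Cufflinks starts were made 1-based. A further 25 per-sample columns were not used. Of these, 12 are named as long RNA, and the drug changes were not compared with them.

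Ratios are log2(value + 100) differences. The test was limma 3.58.1 in R 4.3.3 (lmFit, eBayes with trend), with treatment as a block, 3 pairs, genes with a mean above 500, two-sided, Benjamini-Hochberg adjusted. The 3 treatments stand in for replicates, so p-values measure the spread between them. The limma SE is moderated. Intervals are exact binomial (Clopper-Pearson, 95%, SciPy 1.17.1) on fragments and cover counting error only. Alternatives were pseudocounts of 10 and 500, no floor or one of 2000, libraries at the same total, the authors' 50% subsamples, no trend, no block, edgeR 4.0.16 and DESeq2 1.42.0 on recovered fragments, an exact binomial test, and leaving out each treatment. The fits were also run on simulated counts with a fixed dispersion and no difference between treatments. That run therefore does not show how the fits handle the spread between treatments. Fingers and KRAB boxes were scanned in translated GENCODE 44 canonical transcripts (matched by Ensembl ID for all 185 genes). No protein sequence was printed, and genes on chromosome 8 were not considered for the printed finger units.

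The genes and role lists were chosen with earlier results of these data known. Named are up to 12 genes with the lowest p among those limma called in each direction, the 3 highest and lowest ratios per treatment above a mean of 5000, up to 6 changes per drug and direction, the 6 highest means, the 3 highest means and any limma call per role list, and the 3 genes on each side of the floor. Others are marked in the text.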

Additional observations from a re-analysis of the deposited data

Results flagged for a closer look

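In 16 genes the log2 ratio of TS-RIP to RIPctr lay above 0 in 1 treatment and below 0 in another, with both 95% counting intervals clear of 0 (19 pairs of treatments). There is 1 library per treatment and fraction, the difference was not tested, and intervals were not adjusted for the number of genes. The same count was not made over all genes tested, so these sign changes do not set the ZNF genes apart. In most of them NT was above and 5FdUR below. The differences NT minus 5FdUR were 1.18 in ZNF367 (0.27 and -0.91), 1.17 in ZNF202 (0.42 and -0.75), 0.97 in ZNF862 (0.46 and -0.51), 0.86 in ZNF704 (0.26 and -0.60), 0.66 in ZNF786 (0.25 and -0.41), 0.58 in ZNF687 (0.15 and -0.44), 0.57 in ZNF618 (0.30 and -0.28), 0.50 in ZNF746 (0.19 and -0.31), 0.44 in ZNF282 (0.20 and -0.24), 0.43 in ZNF598 (0.20 and -0.23) and 0.40 in ZNF664 (0.27 and -0.13). NT was above and RTX below in ZNF263 (difference 0.67, from 0.44 to -0.23), ZNF367 (0.61) and ZNF704 (0.53). The opposite order was seen in ZNF330, where RTX exceeded NT by 0.59 (0.28 and -0.31), and in ZNF622, the ribosome assembly factor, where RTX exceeded NT by 0.27 and 5FdUR by 0.32. RTX exceeded 5FdUR by 1.07 in ZNF212 (0.42 and -0.66) and by 0.49 in ZNF646 (0.22 and -0.26). These genes with RTX above had lower RTX limits of 0.08 (ZNF330), 0.004 (ZNF622), 0.05 (ZNF212) and 0.07 (ZNF646). Equal library totals would change RTX ratios by -0.11, so these intervals would reach below 0. The 5FdUR interval of ZNF622 (lower limit 0.05, change -0.08) would do so too. The sign changes of these genes thus depend on the scaling, while those with NT above would remain. ZNF598, a ubiquitin ligase of collided ribosomes, and ZNF704, also among the largest decreases with 5FdUR, are thus among genes whose ratio changed sign.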

How the results depend on the processing

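The count of genes lower by limma (19) was 5 with libraries at the same total, 9 with 50% subsamples, 0 without the trend, 0 without the block, and 7 by DESeq2. Leaving out a treatment gave 3 to 45. All 19 were among the 24 called without a floor and the 45 called without NT, both of which are refits of the same libraries. Over the whole table, limma's 831 lower were then 457, 468, 215 and 47, DESeq2 called 419, and 359 to 2091 were lower with a treatment left out. Its 314 higher were 65, 139, 0 and 0, and 4 to 1862 with a treatment left out. Higher by limma (0) were 2 without a floor, 1 by edgeR, 1 by DESeq2, and 0 to 3 with a treatment left out. The median RTX ratio (-0.16) was -0.27 at the same total. Past 1.5-fold, NT lower (9) was 5 at the same total and 5 with the exact binomial test, and NT higher (4) was 9 at the same total, 10 with 50% subsamples and 2 with the binomial test. RTX higher (3) was 7 with 50% subsamples. 5FdUR lower (38) was 25 with the binomial test, and 5FdUR higher (4) was 2 at the same total and 2 with the binomial test. Up with 5FdUR (4) was 2 with a pseudocount of 500 and 2 with 50% subsamples. The cause was not tested. The NT median (-0.02) was 0.07 at the same total and 0.01 with 50% subsamples, so its sign turned in both. Other counts moved as well: NT lower was 6 with a pseudocount of 500 and 13 with 50% subsamples. RTX lower (30) was 38 at the same total and with 50% subsamples. 5FdUR lower was 46 at the same total, and 5FdUR higher was 6 with 50% subsamples. The 5FdUR median ratio (-0.21) was -0.30 at the same total. Counts of genes that went down with a drug stayed between 23 and 26 with RTX and between 35 and 41 with 5FdUR. ZNF107 and ZNF326 were called in 12 of 14 fits each, and ZNF706 in 4. The RIP libraries have no biological replicate, and genes near the floor rest on a few fragments.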
